A study of Mus musculus with 2 samples.

Results

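The 8 genes described here encode transcription factors, or partners of them, that act when a B cell becomes an antibody-secreting plasma cell: Prdm1, Irf4, Xbp1, Pou2af1, Pax5, Spib, Bach2 and Bcl6. They were taken by symbol from the gene list of the tables, where all 8 of the 8 symbols were found once each among 32285 genes, and their UMI counts (counts of distinct captured RNA molecules) were followed through resting and cycling B cells and through cycling and non-cycling plasma cells. The cells were the non-adipocytes of a visceral fat depot, the gWAT stromovascular fraction, of male Cyp1a1Cre x R26LSL-eYFP mice. All mice carried both alleles, in which Cre under the control of Cyp1a1, which the aryl hydrocarbon receptor induces, permanently switches on eYFP, so every cell described had been sorted as live and eYFP+ and the data hold no eYFP- cells. Over 12 weeks the mice ate purified food with 10% fat (LFD) or with 60% fat (HFD), and all were given FICZ, a ligand of that receptor, at 10 mg/kg 5 days before the tissue was taken. The study pooled mice of a diet into 1 library per diet and the files tie no cell to a mouse, so no difference between diets has a replicate check, no p-value is given, and every interval below is a 95% interval that covers counting error only.

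B cell identity is held by PAX5, with the ETS factor SPI-B and the repressors BACH2 and BCL6, which keep the programme of antibody secretion off. In plasma cells BLIMP-1, the product of Prdm1, represses that B cell programme, XBP1 builds the endoplasmic reticulum and the secretory pathway, and IRF4 is needed at high level for the change and for plasma cell survival. OBF-1, the product of Pou2af1, is a coactivator of the octamer-binding proteins and is used on both sides. B and plasma cells are long known as residents of visceral fat.

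The LFD library held 114311020 UMIs over 11281 barcodes and the HFD library 119498750 UMIs over 9631 barcodes, of which 10216 and 8537 passed the limits of 500 to 40000 UMIs, at least 100 genes and under 12.5% mitochondrial UMIs. Cells were classed from 6 B markers, 6 plasma markers and 8 cycle markers, none of which is a gene described here. This gave 866 LFD and 639 HFD resting B cells, 210 and 90 cycling B cells, 210 and 623 cycling plasma cells, and 135 and 556 non-cycling plasma cells. Plasma cells of all cycle states were 3.62% of LFD and 15.4% of HFD cells. Of genes outside the marker lists, the B cell receptor subunit Cd79a stood at 1790 to 2678 CPM (counts per 1000000 UMIs summed over a class) in B cells and at 161 to 279 CPM in plasma cells, and Slamf7, a surface protein of plasma cells, at 3.70 to 9.68 and 101 to 143 CPM. The 11 markers of other lineages added up to 63.4 to 68.1 CPM in resting B cells and 13.6 to 37.7 CPM in non-cycling plasma cells, with 2 to 5 of them at 0, and the macrophage marker Adgre1 was the highest in resting B cells at 28.8 CPM (LFD) and 41.7 CPM (HFD). The classes differed in depth, with a median of 3695.5 (LFD) and 3982 (HFD) UMIs in a resting B cell against 10066 and 11597.5 in a non-cycling plasma cell, and immunoglobulin genes with Jchain took 1.47 to 1.48% of UMIs in the former and 36.5 to 42.6% in the latter. The libraries shared 22 barcodes among the kept cells, and 4 LFD and 5 HFD cells of the B and plasma classes carried one.

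Between resting B cells and non-cycling plasma cells the factors separated in the same way in both libraries. Prdm1, Xbp1 and Pou2af1 were higher in plasma cells, Pax5, Spib and Bach2 were lower, Irf4 differed by less than 2-fold, and Bcl6 was close to absent on both sides. With a limit of 2-fold and at least 20 counts over both classes, 7 of the 8 factors could be judged, and 3 were higher and 3 were lower in plasma cells in each library. Over all genes judged in the same way, 6.02% were higher and 46.7% lower in the LFD library, and 8% were higher and 51% lower in the HFD library. The median gene lay at -0.92 (LFD) and -1.03 (HFD) on the log2 scale, whereas the median of the 7 factors lay at 0.38 and 0.51. The immunoglobulin messages compress all other CPM of plasma cells, and how much of the shift of the median gene came from them was not tested. A lower level in plasma cells was thus common and a higher level uncommon across the genome. Ratios under median-ratio scaling are also given below. It divides by the median ratio of genes with at least 20 counts in each of the 2 classes, a narrower set than the genes judged here. The shift it takes out is thus not the one of the median gene given above.

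**Figure D1:**
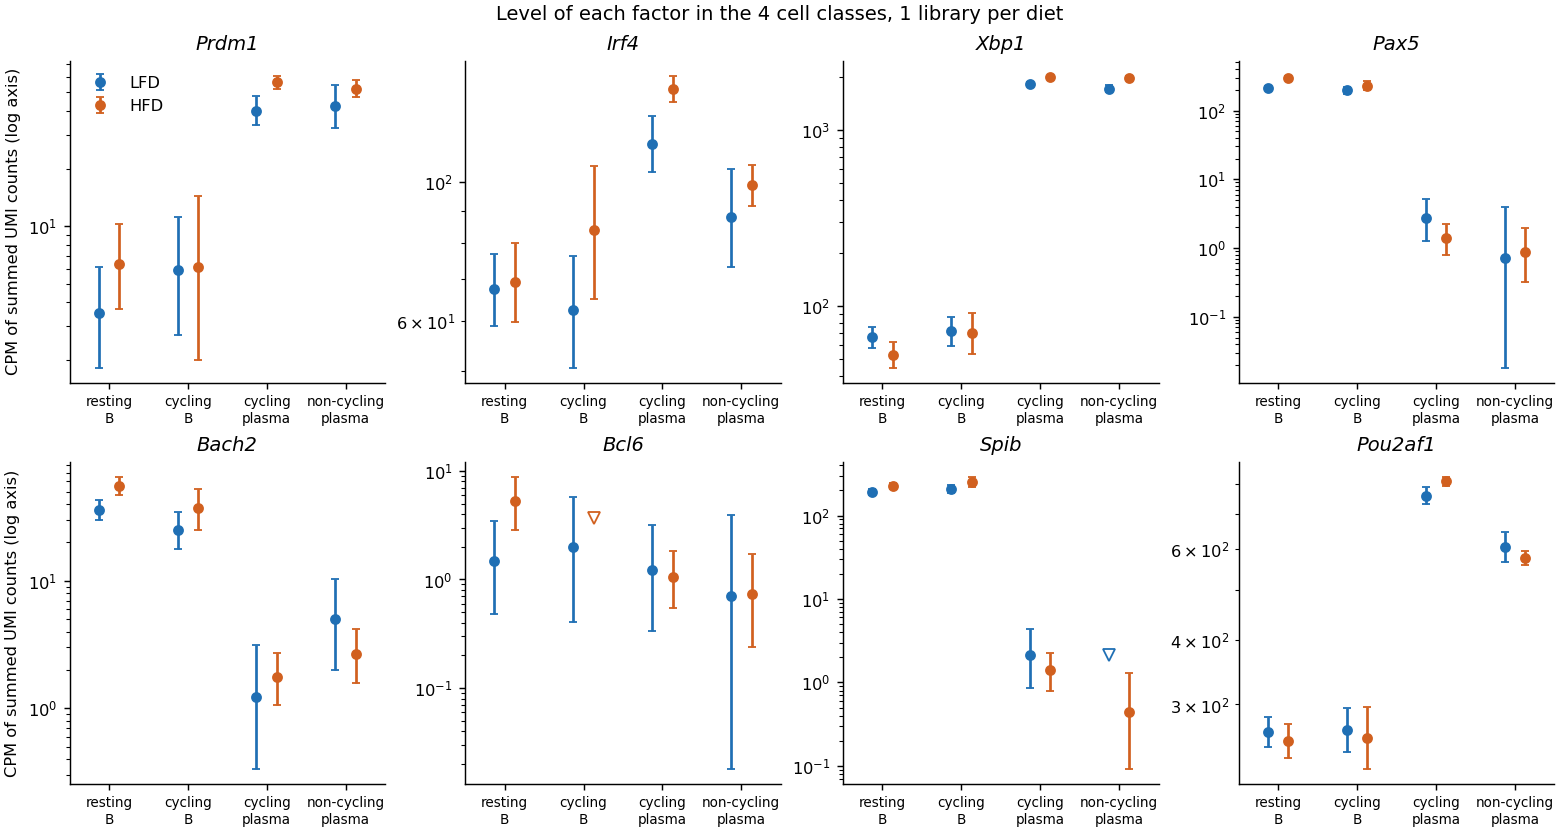
CPM of each factor (vertical, log axis with a range of its own in each panel) in the 4 cell classes for the LFD (blue) and HFD (orange) library, with exact Poisson 95% bars and open triangles at the level of 3 counts where none was counted. Xbp1 sits at 1716 CPM or more in all plasma classes and at 71.7 CPM or less in all B classes, and Pax5 and Spib sit at 191 CPM or more in B classes and at 2.76 CPM or less in plasma classes.

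Xbp1, the factor of the unfolded protein response that expands the secretory pathway, had the largest plasma to B ratio of the factors. LFD cells had 66.0 CPM (57.7 to 75.2) when resting B and 1716 CPM (1648 to 1786) when non-cycling plasma. HFD cells had 52.5 CPM (44.2 to 62.0) and 1981 CPM (1947 to 2015). The ratios were 26.0 (22.7 to 29.9) and 37.7 (31.9 to 44.9), or 38.6 and 78.3 with median-ratio scaling. Every cycling plasma cell, 210 of 210 and 623 of 623, had an Xbp1 UMI. When each cell was thinned to 2000 UMIs in all, of which immunoglobulin genes still took the larger share in plasma cells, 12.0% of LFD and 11.3% of HFD resting B cells and 85.2% and 93.5% of non-cycling plasma cells had one. The gene lies at chr11:5520659-5525893 on the plus strand of GRCm38, the build called mm10.

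Prdm1, which encodes the repressor BLIMP-1, was low in count, with intervals that did not overlap between the classes. Resting B cells held 12 UMIs (3.52 CPM, 1.82 to 6.15) in the LFD and 17 UMIs (6.38 CPM, 3.72 to 10.2) in the HFD library, and non-cycling plasma cells 60 UMIs (42.6 CPM, 32.5 to 54.9) and 354 UMIs (52.3 CPM, 47.0 to 58.1). The plasma to B ratios of 12.1 (6.45 to 24.7) and 8.20 (5.05 to 14.2) became 17.97 and 17.05 with median-ratio scaling. Even in plasma cells the message was caught in a minority of shallow cells, 8.15% (4.14 to 14.1%) of LFD and 8.99% (6.75 to 11.7%) of HFD non-cycling plasma cells at 2000 UMIs, against 0.361% and 1.29% of resting B cells. Without thinning the shares in non-cycling plasma cells were 34.8% and 43.5%. Prdm1 lies at chr10:44437177-44528501 on the minus strand.

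Pou2af1 was already among the readily detected factors in B cells and was higher again in plasma cells. The LFD library had 265.9 CPM (248.8 to 283.8) in resting B cells and 604.6 CPM (564.7 to 646.7) in non-cycling plasma cells, and the HFD library 254.8 CPM (236.0 to 274.7) and 575.2 CPM (557.3 to 593.6). Both ratios, 2.27 (2.07 to 2.50) and 2.26 (2.08 to 2.45), lay just past the 2-fold limit and were 3.38 and 4.69 under median-ratio scaling. The thinned share of cells with a UMI was 39.8% and 38.6% in resting B cells and 67.4% and 63.5% in non-cycling plasma cells. A sense-intronic transcript, Gm47828, lies within Pou2af1 on the same strand, and reads of the 2 could be split between them.

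Irf4, which both activated B cells and plasma cells use, differed least of the factors that could be judged. In the LFD library resting B cells had 67.5 CPM (59.1 to 76.8) and non-cycling plasma cells 88.1 CPM (73.3 to 105). The HFD values were 69.4 CPM (59.8 to 80.2) and 98.9 CPM (91.5 to 107). The ratios of 1.31 (1.04 to 1.63) and 1.42 (1.21 to 1.69) were above 1 but under 2-fold. Leaving the immunoglobulin genes out of the total gave 2.03 and 2.44, and median-ratio scaling 1.94 and 2.96, so whether Irf4 passed the limit depended on how the immunoglobulin share was handled. In thinned cells the share with an Irf4 UMI was 10.8% and 12.1% of resting B cells and 14.1% and 18.2% of non-cycling plasma cells, with overlapping intervals in the LFD library (8.79 to 13.1% and 8.69 to 21.1%).

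Pax5, the factor that commits cells to the B lineage, was nearly confined to B cells. Resting B cells held 724 UMIs (212 CPM, 197 to 229) in the LFD and 798 UMIs (299 CPM, 279 to 321) in the HFD library, against 1 UMI (0.711 CPM) and 6 UMIs (0.887 CPM) in non-cycling plasma cells. The plasma to B ratio was 0.00334 (8.46e-05 to 0.0187) in the LFD and 0.00296 (0.00108 to 0.00648) in the HFD library. In thinned cells, 30.6% and 43.6% of resting B cells had a Pax5 UMI, and 0 of 135 LFD plasma cells did, which allows a share of up to 2.22% with 3 counts as the floor (exact upper limit 2.70%), and 2 of 556 HFD plasma cells. Stromal cells, which should lack Pax5, had one in 1 of 6305 and 1 of 4146 thinned cells, and macrophages in 1 of 407 and 1 of 432.

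Spib, an ETS factor of B cells, followed Pax5. Resting B cells held 650 LFD UMIs (191 CPM, 176 to 206) and 595 HFD UMIs (223 CPM, 206 to 242), and non-cycling plasma cells 0 and 3. The LFD level was at least 89.5-fold lower in plasma cells, taking 3 counts in that class as the floor, and the HFD ratio was 0.00199 (0.000408 to 0.00583). Of all pairs among the 8 factors, Pax5 and Spib had the most similar levels, with Pearson r = 0.970 across 18 points (9 cell classes in the 2 libraries, which share their 2 sources). Of the Pax5 and Spib UMIs that the plasma classes did hold, most lay in plasma cells with at least 3 B markers, a group of 84 of 370 LFD and 242 of 1311 HFD plasma cells. It carried 7 of 10 (LFD) and 24 of 28 (HFD) Pax5 UMIs and 5 of 7 and 22 of 23 Spib UMIs.

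Bach2, a repressor of Prdm1, was lower in plasma cells by a smaller factor. Resting B cells held 123 LFD UMIs (36.1 CPM, 30.0 to 43.1) and 148 HFD UMIs (55.5 CPM, 47.0 to 65.2). Non-cycling plasma cells held only 7 (4.97 CPM, 2.00 to 10.2) and 18 (2.66 CPM, 1.58 to 4.21). The levels were 7.26-fold (3.42 to 18.4) and 20.9-fold (12.8 to 36.2) lower in plasma cells. With median-ratio scaling the plasma to B ratios were 0.205 and 0.0996. Stromal cells had 5.43 CPM (LFD) and 4.03 CPM (HFD), no less than the plasma cells. Without immunoglobulin genes in the total the order turned, with 5.44 and 4.05 CPM in stromal cells and 7.83 and 4.635 CPM in non-cycling plasma cells. The sense-intronic transcript Bach2it1 and a small RNA lie within Bach2 on the same strand.

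Bcl6, the repressor that runs the germinal centre reaction, had 5 LFD and 14 HFD UMIs in all resting B cells together and 1 and 5 in non-cycling plasma cells. That was 1.47 and 5.25 CPM against 0.711 and 0.739 CPM, under the minimum for a ratio in both libraries. Stromal cells (8.87 and 12.1 CPM) and macrophages (16.4 and 22.6 CPM) had more. Genes of activation and the germinal centre gave few counts as well, and only 4 (LFD) and 5 (HFD) of the 8 on that list reached 20 counts.

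The regions before the start sites of the 3 factors that were lower in plasma cells are printed because all 3 hold the core of the BLIMP-1 site, GNGAAAG, read on both strands. The 250 bases before the start of each are from RefSeq on build GRCm38.p6, in the direction of transcription, with the core in capitals. They are chr4:44710695-44710944 (minus strand) for Pax5, chr7:44532072-44532321 (minus strand) for Spib and chr4:32417185-32417434 (plus strand) for Bach2, and none overlaps an exon of GENCODE M21. The Bach2 window lies before an internal start of RefSeq, inside the GENCODE gene at chr4:32238804-32586108, and not at its 5′ end, and the window searched for Prdm1 is internal too.
Pax5: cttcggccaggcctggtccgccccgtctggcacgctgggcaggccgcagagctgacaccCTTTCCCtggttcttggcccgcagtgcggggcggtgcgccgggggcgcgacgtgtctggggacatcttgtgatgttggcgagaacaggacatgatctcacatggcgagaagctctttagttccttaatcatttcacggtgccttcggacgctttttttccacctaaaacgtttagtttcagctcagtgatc
Spib: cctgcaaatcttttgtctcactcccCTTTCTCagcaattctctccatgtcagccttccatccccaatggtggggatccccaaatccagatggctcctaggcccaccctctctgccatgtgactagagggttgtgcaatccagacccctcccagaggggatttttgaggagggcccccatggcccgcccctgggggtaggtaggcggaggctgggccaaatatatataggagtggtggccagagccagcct
Bach2: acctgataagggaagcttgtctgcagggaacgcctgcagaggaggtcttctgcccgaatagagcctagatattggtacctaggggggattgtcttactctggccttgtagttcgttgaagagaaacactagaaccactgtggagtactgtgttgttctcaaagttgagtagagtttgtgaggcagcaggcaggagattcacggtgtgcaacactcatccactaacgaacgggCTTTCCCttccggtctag
Counted from the start site, the first base of the core lay at -191 in Pax5, -225 in Spib and -18 in Bach2, each time on the strand opposite to transcription. The core was also found before Irf4 and at 1 of the 2 start sites of Bcl6, so in 5 of the 8 factors, and in none of the windows of Prdm1, Xbp1 and Pou2af1. It is a short motif, and 19.4% of all 32851 windows of the same length held it. Of the other motifs searched on both strands, the octamer ATGCAAAT was in no member's window and in 1.60% of all windows, and ACGTGG, a core of the unfolded protein response element, was before Pou2af1 and Bcl6 and in 6.91% of all. TGANTCA, read by AP-1 and in longer form by BACH2 with its partners, was before Prdm1 and in 6.75% of all, and TTCNNNGAA, a BCL6 core, was before Bach2 and Bcl6 and in 7.02% of all. No core printed in capitals overlapped another of these motifs. These matches describe the letters of the windows and not binding.

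Thinning all cells to 2000 UMIs removed 34 LFD and 20 HFD resting B cells that were shallower and no plasma cell. The share with a UMI then differed between the classes in the same direction as CPM. Prdm1, Irf4, Xbp1 and Pou2af1 were found in a larger share of non-cycling plasma cells than of resting B cells in both libraries, and Pax5, Spib and Bach2 in a smaller share. Bcl6 was in 2 of 832 LFD and 8 of 619 HFD resting B cells and in 0 of 135 and 0 of 556 plasma cells, which allows up to 2.22% and 0.540% by the same floor (exact upper limits 2.70% and 0.661%). The LFD library thus could not show a difference, and in the HFD library the intervals overlapped as well, with 0.560 to 2.53% in resting B cells.

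**Figure D2:**
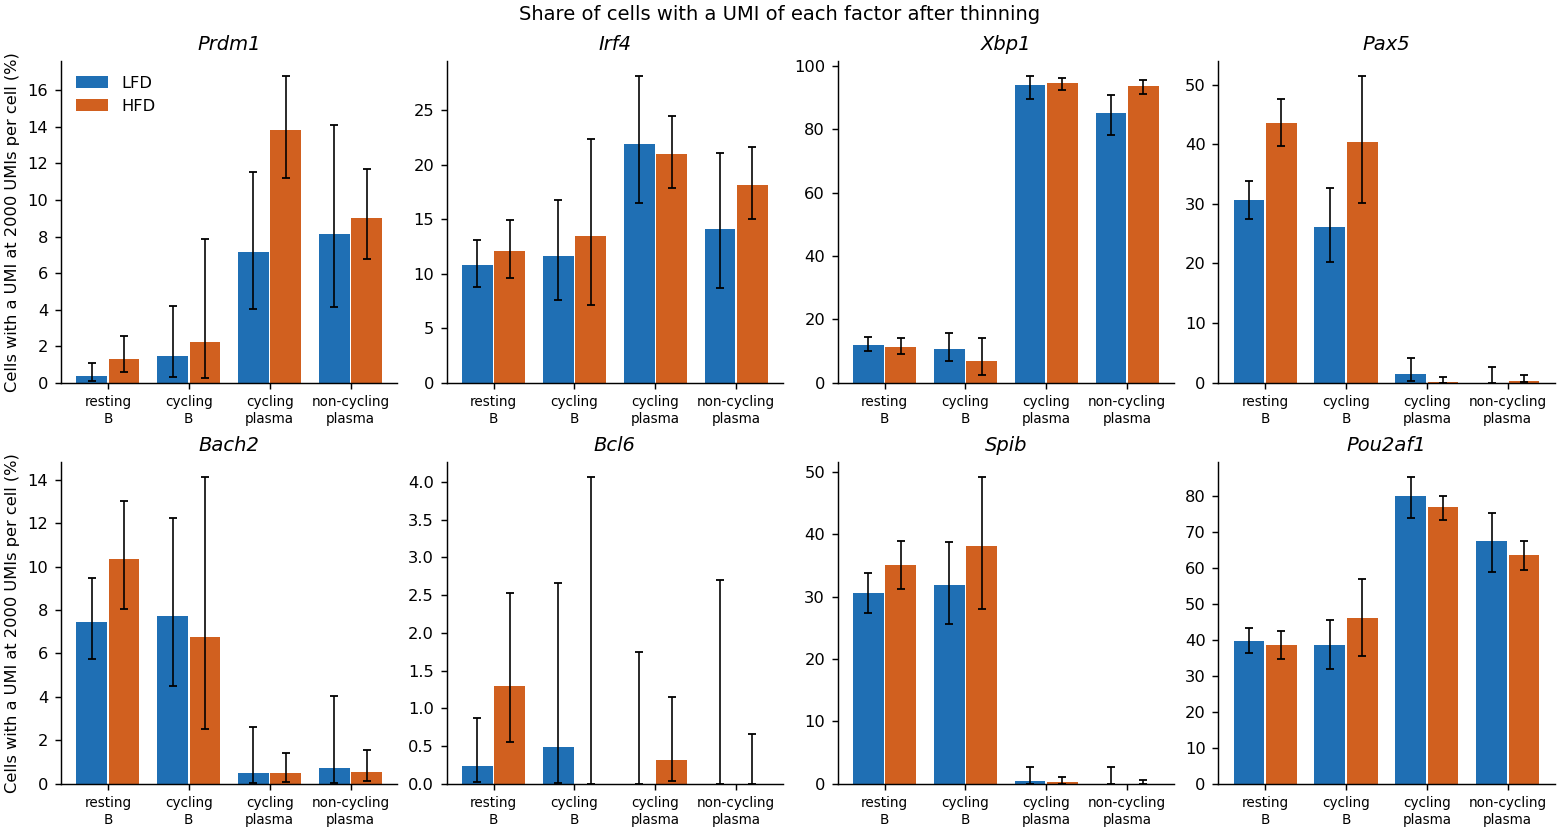
Share of cells (vertical, %, from 0 with a range of its own in each panel) with at least 1 UMI of each factor after thinning to 2000 UMIs, by class, LFD in blue and HFD in orange, with exact binomial 95% bars. Xbp1 is found in 85.2 to 94.5% of plasma cells and 6.74 to 12.0% of B cells, and Pax5 in 26.1 to 43.6% of B cells and 0 to 1.43% of plasma cells.

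Other regulators of each side were looked at with lists that leave out these 8 factors. Of 13 regulators of B cell identity, all with enough counts, 0 were higher and 10 (LFD) or 11 (HFD) were lower in non-cycling plasma cells, with a median ratio of 0.211 and 0.191, where 46.7% and 51% of all genes were lower. The lowest ratios were those of Ciita, the master regulator of MHC class II genes, with 0 and 2 UMIs in plasma cells against 247 and 243 in resting B cells, and of Bcl11a, at 0.00770 (LFD) and 0.00772 (HFD). The highest were those of Mef2c at 0.587 and 0.671 and of Id3 at 0.535 in the LFD and Tcf3 at 0.573 in the HFD library, none past 2-fold. Of 8 plasma cell regulators, 4 were higher and 2 lower in each library, with a median ratio of 2.93 and 1.99, where 6.02% and 8% of all genes were higher. Bhlha15, which encodes the secretory cell factor MIST1, had 50 (LFD) and 220 (HFD) UMIs in plasma cells against 0 and 3 in resting B cells. Creb3l2 followed in the LFD library at 5.89 (3.97 to 8.89), and Ern1, which encodes the kinase that splices the Xbp1 message, in the HFD library at 10.7 (4.81 to 29.6). The 2 lower genes were Ikzf3, at 0.320 and 0.295, and Zbtb20, at 0.474 and 0.289. Of the activation and germinal centre list, 3 of the 4 (LFD) and 3 of the 5 (HFD) genes with enough counts were lower and none was higher, against the same shares of all genes. Myc was lowest in the LFD library at 0.0280 (0.00336 to 0.103), with 2 UMIs in plasma cells, and Rel was next at 0.0303. In the HFD library Rel was lowest at 0.0191 (0.0133 to 0.0265), followed by Myc at 0.142. The 2 highest were Fas at 0.788 and Batf at 0.202 in the LFD library and S1pr2 at 1.87 and Fas at 0.670 in the HFD library.

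To see the levels between the classes, B-lineage cells were ordered by how many of the 6 plasma markers had a UMI, a count that uses none of the 8 factors. Cells entered with at least 2 B markers or as plasma cells, so cells with 3 plasma markers are there by their B markers, which bears on their Pax5 and Spib. Only 33 LFD and 57 HFD cells had 3 plasma markers, against 325 and 216 with none and 124 and 617 with all 6. Prdm1 increased from 1.56 CPM at 0 markers to 3.38, 8.20, 27.5 and 44.4 CPM at 1, 2, 3 and 4 markers in the LFD library, and from 2.23 to 4.49, 12.96, 33.3 and 61.1 CPM in the HFD library, with no further increase beyond 4. The depth of these cells went up along the same order, from a median of 3600 (LFD) and 3914 (HFD) UMIs at 0 markers to 13272 and 14737 at 6, and its part in the order of cells was not tested.

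In the summed counts of the cells with 3 markers, Xbp1 was already high and Pax5 was still present. Xbp1 stood at 52.9, 59.3 and 117 CPM with 0, 1 and 2 markers in the LFD library, at 949 CPM (840 to 1068) with 3 and at 1559 CPM with 4. In the HFD library it stood at 57.9 CPM with 2 markers, 629 CPM (562 to 701) with 3 and 1756 CPM with 4. Pax5 went from 239 CPM with no plasma marker to 184 CPM with 2, 89.4 CPM (58.4 to 131) with 3 and 5.98 CPM with 4 in the LFD library, and from 325 to 255, 196 (159 to 238) and 5.13 CPM in the HFD library. Spib went the same way, with 79.1 CPM (LFD) and 139 CPM (HFD) at 3 markers and 4.27 and 3.59 CPM at 4. Bach2 kept 34.4 and 35.2 CPM at 3 markers, from 10 and 18 UMIs, and had 2.56 and 2.57 CPM at 4.

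Irf4 was the only one of these factors whose highest value in both libraries was at 3 markers, although its interval there overlapped that at 4 markers. It had 127 CPM (89.6 to 175) there in the LFD library, against 82.8 CPM (67.4 to 101) at 2 and 97.4 CPM (80.3 to 117) at 4. In the HFD library it had 163 CPM (129 to 201), against 76.9 CPM (61.8 to 94.7) at 2 and 141 CPM (124 to 158) at 4. The interval at 3 markers thus overlapped that at 4 markers in both libraries and that at 2 markers in the LFD library. Leaving the immunoglobulin genes out of the total moved the highest LFD level to 6 markers (167 CPM, against 138 at 3) and the highest HFD level to 4 markers (209 CPM, against 178 at 3). The place of the highest Irf4 level thus depended on how the immunoglobulin share was handled.

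**Figure D3:**
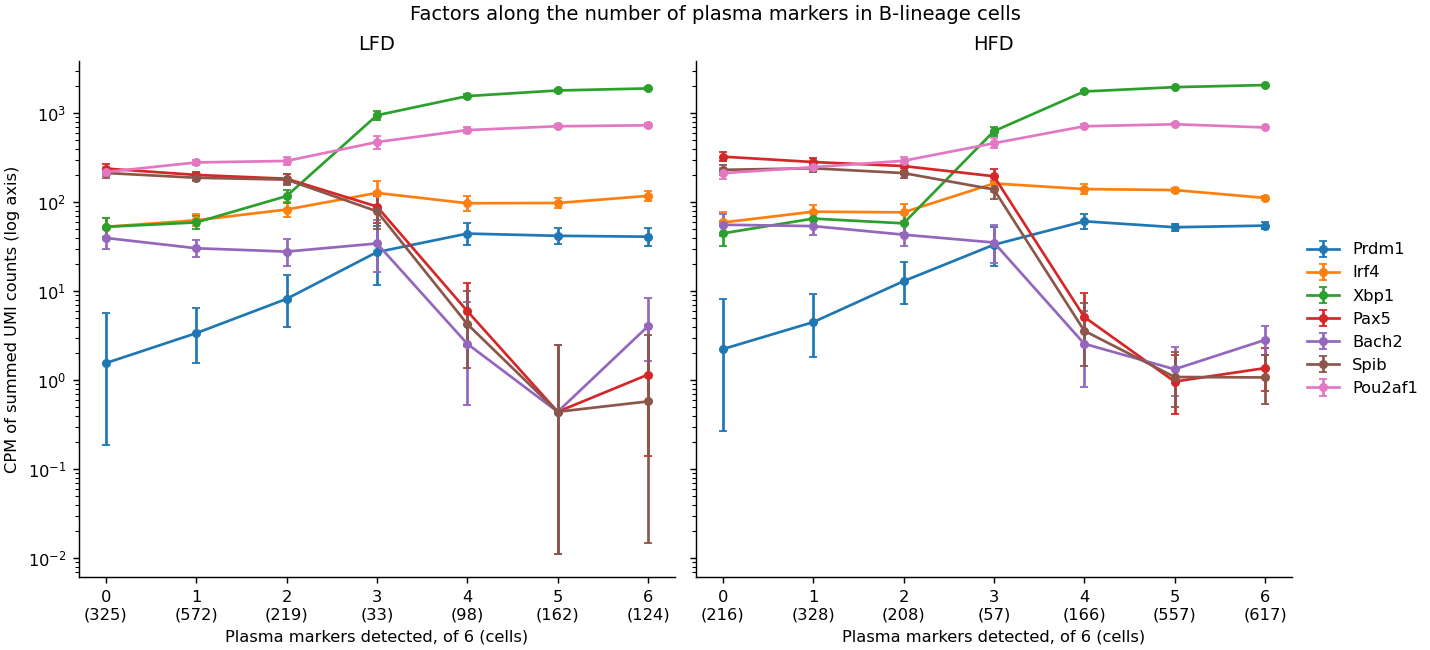
CPM of 7 factors (vertical, log axis; Bcl6 is left out for its low counts) against the number of the 6 plasma markers detected in a B-lineage cell, with the number of cells in brackets and exact Poisson 95% bars, LFD left and HFD right. Pax5, Spib and Bach2 are far lower at 4 markers than at 3, and Xbp1 is higher at 3 markers than at 2 and at 4 than at 3.

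The cells with 3 plasma markers held both kinds of message as a group, but few single cells held Pax5 together with 5 or more Xbp1 UMIs. With 5 Xbp1 UMIs as the line, 2 of the 15 LFD cells with a Pax5 UMI and 4 of the 38 HFD cells reached it. Of the cells without Pax5, 8 LFD and 9 HFD cells reached it, and 10 in each library did not. Of the cells with a Prdm1 UMI, 1 of 5 (LFD) and 5 of 9 (HFD) also had one of Pax5. Scrublet, which scores barcodes by their likeness to simulated cell pairs, took out 6.06% (LFD) and 12.3% (HFD) of the cells with 3 markers. It took out 2.28% and 1.44% of those with 2, 9.18% and 6.63% of those with 4, and 9.0% and 7.7% of all kept cells. The number taken out was set from the number of barcodes. After this removal Irf4 in the cells with 3 markers stood at 127 CPM in the LFD and 134 CPM (103 to 173) in the HFD library, and Pax5 at 96.4 and 216 CPM. Cells in cycle made up 39.4% and 38.6% of the cells with 3 markers. The 22 cycling HFD cells with 3 markers held 14 of the 17 Prdm1 UMIs, or 47.9 CPM (26.2 to 80.4), and the 32 non-cycling ones 1 UMI, or 5.26 CPM (0.133 to 29.3). In the LFD library the intervals overlapped, with 6 UMIs (32.2 CPM, 11.8 to 70.1) in cycling and 2 UMIs (24.7 CPM, 3.00 to 89.4) in non-cycling cells.

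Prdm1 was rare enough in B cells to ask what else those cells carried. Of 1116 LFD B cells in any cycle state, 15 had a Prdm1 UMI, and Irf4 was found in 8 of these 15 (53.3%) against 22.0% of all B cells, and Pax5 in 3 (20%) against 56.3%. Of 752 HFD B cells, 22 had a Prdm1 UMI, and here Irf4 was found in 5 (22.7%) against 23.9% of all, and Pax5 in 14 (63.6%) against 66.9%. At 2000 UMIs a cell, Irf4 was found in 4 of the 6 LFD B cells with a Prdm1 UMI and 1 of the 10 HFD ones, against 10.9% and 12.3% of all, and Pax5 in 0 of 6 and 3 of 10, against 29.9% and 43.2%. These shares rest on few cells, and the Irf4 pattern of the LFD library was not seen in the HFD library. Among plasma cells with a Prdm1 UMI, 68.8% of 154 (LFD) and 74.7% of 656 (HFD) had an Irf4 UMI, against 60% and 69.1% of all plasma cells. At 2000 UMIs a cell these shares were 6 of 28 (21.4%) and 29 of 145 (20%), against 18.4% and 19.4%.

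Cells in cycle were compared with cells out of cycle within each lineage, at 1.5-fold and 20 counts. In B cells, 1 of 7 factors in the LFD library and 1 of 7 in the HFD library passed, where 27.6% and 37.1% of all genes did. The LFD call was Prdm1 at 1.68 (0.625 to 4.35), from 9 and 12 UMIs, with 4 of the 9 in a single cell. The HFD call was Bach2, which was lower in cycling B cells at 24.99 CPM (LFD) and 36.99 CPM (HFD) against 36.1 and 55.5 CPM in resting B cells. Its ratios were 0.692 (0.468 to 1.00) and 0.666 (0.434 to 0.991), so that the HFD library passed the limit by a narrow margin and the LFD library did not. Pax5 was at 0.929 (0.809 to 1.06) and 0.770 (0.653 to 0.904), while Spib (1.10 and 1.14) and Pou2af1 (1.01 and 1.02) had intervals that held 1.

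In plasma cells, 0 of 4 factors in the LFD and 2 of 6 in the HFD library passed 1.5-fold, where 45% and 43.2% of all genes did and the median gene lay at 0.37 and 0.41 on the log2 scale. The 2 were Pax5 (16 and 6 UMIs, ratio 1.58, 0.587 to 4.93) and Bach2 (20 and 18 UMIs, ratio 0.658, 0.330 to 1.32), with intervals that held 1. With the mean of per-cell CPM the Pax5 ratio turned to 0.912, and 1 or 0 factors passed under several of the other settings. Cycling plasma cells held 376 LFD UMIs of Irf4 (115 CPM, 104 to 128) and 1611 HFD UMIs (141 CPM, 134 to 148), 1.31 (1.07 to 1.62) and 1.43 (1.30 to 1.56) times the non-cycling CPM. Pou2af1 was at 759.5 and 808.7 CPM, 1.26 (1.16 to 1.36) and 1.41 (1.35 to 1.46) times. With median-ratio scaling the excesses came to 1.08 and 1.09 for Irf4 and 1.03 and 1.08 for Pou2af1. Xbp1 was at 1.06 and 1.01 in CPM and below 1, at 0.874 and 0.776, under median-ratio scaling. Prdm1 was at 0.942 (0.689 to 1.30) and 1.08 (0.947 to 1.23), and at 0.776 and 0.829 under median-ratio scaling, so its HFD direction turned with the scaling.

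The diets were compared within each class, between 1 library and 1 library. Past 1.5-fold with 20 counts were 2 of 7 factors in resting B cells, 0 of 6 in cycling B cells, 2 of 7 in cycling plasma cells and 1 of 5 in non-cycling plasma cells. Of all genes judged, 23.9%, 21.6%, 16.4% and 27.7% were past that limit in these classes, and the calls among the factors are read against these shares.

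In resting B cells Pax5, Spib and Bach2 were each higher in the HFD library. Bach2 was at 36.1 CPM (LFD) and 55.5 CPM (HFD), a ratio of 1.54 (1.20 to 1.97), Pax5 at 212 and 299 CPM, a ratio of 1.41 (1.27 to 1.56), and Spib at 191 and 223 CPM, a ratio of 1.17 (1.05 to 1.31). Only Bach2 of these passed 1.5-fold. It lay between 1.43 and 1.65 over the other settings tried. At 1.45 under median-ratio scaling it missed the limit, and with no other-lineage marker allowed none of the factors passed. Pax5 lay between 1.33 and 1.53. In thinned cells the share with a Pax5 UMI was 30.6% (27.5 to 33.9%) in the LFD and 43.6% (39.7 to 47.6%) in the HFD library. The second factor past the limit was Prdm1, at 1.81 (0.815 to 4.16), from 12 and 17 UMIs. Xbp1 went the other way at 0.796 (0.640 to 0.987), Irf4 stood at 1.03 (0.843 to 1.25) and Pou2af1 at 0.958 (0.866 to 1.06). Bcl6 had 5 LFD and 14 HFD UMIs, too few for a call.

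Among other regulators in resting B cells, 1 of 13 of B cell identity was past 1.5-fold and 3 of the 6 plasma cell regulators with enough counts were, these 4 higher in the HFD library, where 23.9% of all genes passed. They were, named after their values were seen, Foxo1 at 1.61 (1.21 to 2.15), and Ell2 at 2.01 (1.59 to 2.54), Atf6 at 1.78 (1.45 to 2.19) and Arid3a at 1.71 (1.29 to 2.26). Of the activation and germinal centre list 2 of the 4 genes with enough counts passed, Rel at 1.75 (1.57 to 1.95) and, lower in the HFD library, Fas at 0.297 (0.133 to 0.601).

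In cycling B cells, of which the HFD library had only 90, the ratios of Bach2 (1.48, 0.886 to 2.45), Irf4 (1.34, 0.968 to 1.85) and Pax5 (1.17, 0.968 to 1.41) had intervals that held 1, and that of Spib was 1.21 (1.01 to 1.44). In cycling plasma cells Prdm1 had 131 LFD UMIs (40.2 CPM, 33.6 to 47.7) and 646 HFD UMIs (56.5 CPM, 52.3 to 61.1), a ratio of 1.41 (1.16 to 1.71). Irf4 was 1.22 (1.09 to 1.37), Xbp1 1.10 (1.07 to 1.13) and Pou2af1 1.06 (1.02 to 1.11) times the LFD level there. The 2 past the limit were Pax5 (0.507, 0.211 to 1.30) and Spib (0.652, 0.254 to 1.87), from 9 and 16 and from 7 and 16 UMIs. Of the 7 LFD Spib UMIs, 5 lay in 1 cell. With the mean of per-cell CPM neither passed (0.744 and 1.02, the latter in the other direction), and none of the factors did with at least 5 or at least 3 plasma markers or without plasma cells that had 3 or more B markers.

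In non-cycling plasma cells Xbp1 was 1.15 (1.11 to 1.21) times as high in the HFD library, Prdm1 1.23 (0.931 to 1.64) and Irf4 1.12 (0.925 to 1.37) times. Pou2af1 was at 0.951 (0.883 to 1.03), and at 1.07 with median-ratio scaling, so its direction depended on the scaling. The 1 factor past the limit was Bach2 at 0.535 (0.213 to 1.52), from 7 and 18 UMIs. The share of immunoglobulin UMIs in this class was 36.5% in the LFD and 42.6% in the HFD library, and the median gene lay at -0.11 on the log2 scale. With median-ratio scaling, Xbp1 was at 1.30, Prdm1 at 1.39 and Irf4 at 1.27. The plasma cells made up 4.24 times (3.78 to 4.77) as large a share of cells in the HFD library, whereas the CPM of Prdm1, Irf4, Xbp1 and Pou2af1 differed by less than 1.5-fold between diets within the plasma classes. Prdm1 passed that limit under some settings, with 1.64 in non-cycling plasma cells under stricter cycle limits and 1.505 in cycling plasma cells without immunoglobulin genes.

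**Figure D4:**
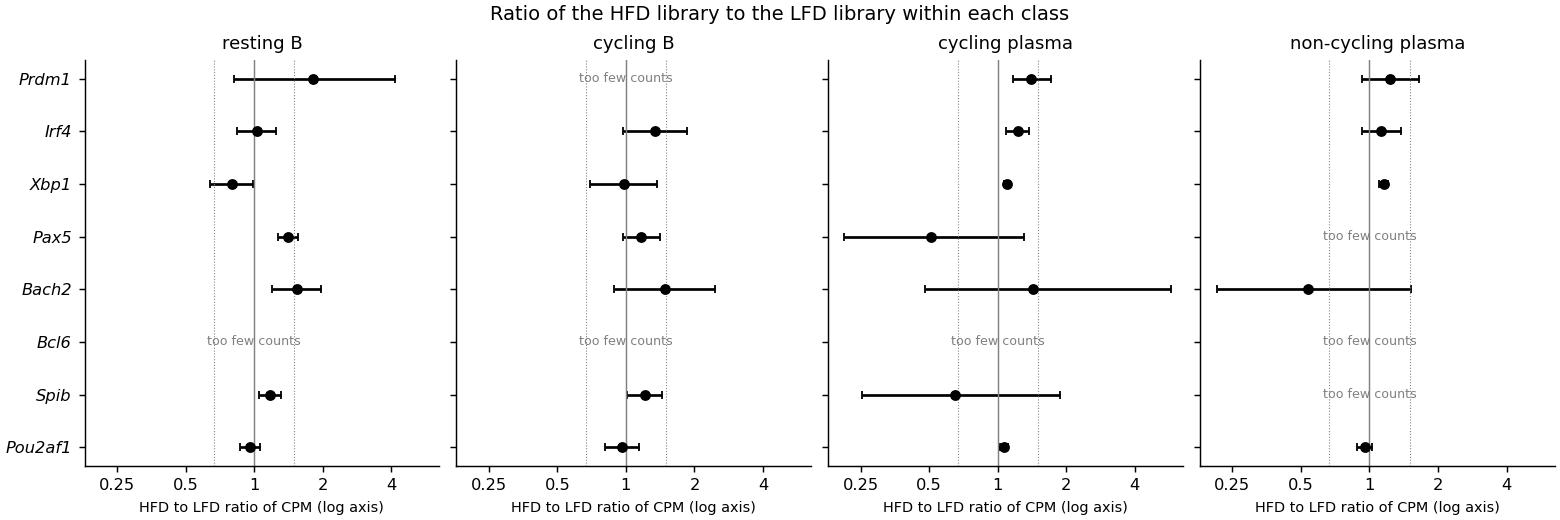
HFD to LFD ratio of CPM (horizontal, log axis) of each factor within the 4 classes, with exact 95% bars for counting error, a line at 1 and dotted lines at 1.5-fold either way. Pax5, Bach2 and Spib sit right of 1 in resting B cells, Xbp1 sits left of 1 there and right of 1 in both plasma classes, and factors with fewer than 20 counts are named without a point.

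Outside the B lineage the factors were not equally restricted. Pax5 was at 2.19 CPM or less in stromal cells, endothelial cells, macrophages, dendritic cells and T or innate lymphoid cells. Spib reached 10.9 CPM (LFD) and 5.09 CPM (HFD) in dendritic cells, from 5 and 3 UMIs. Pou2af1 was at 12.4 CPM or less, and in endothelial cells 13 of its 25 LFD UMIs and 12 of its 36 HFD UMIs came from a single cell. Irf4 was next highest in T or innate lymphoid cells, with 19 UMIs in each library (28.3 CPM, 17.0 to 44.1, for LFD and 42.3 CPM, 25.5 to 66.1, for HFD).

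Prdm1 was also found in macrophages, with 90 LFD UMIs (44.8 CPM, 36.0 to 55.1) and 82 HFD UMIs (28.1 CPM, 22.3 to 34.9), and in endothelial cells at 18.6 (LFD) and 26.95 CPM (HFD). The LFD macrophage level did not differ beyond its interval from that of LFD non-cycling plasma cells, 42.6 CPM (32.5 to 54.9). The HFD macrophage level lay below that of HFD non-cycling plasma cells, 52.3 CPM (47.0 to 58.1). With immunoglobulin genes left out of the total, macrophages had 44.8 (LFD) and 28.2 CPM (HFD), against 67.2 and 91.2 CPM in non-cycling plasma cells. Xbp1 was higher in each of the stromal, endothelial and macrophage classes, 151 to 232 CPM, than in resting B cells. Bach2 was at 32.8 (LFD) and 30.5 CPM (HFD) in dendritic cells, against 36.1 and 55.5 CPM in resting B cells, and at 7.44 CPM (LFD, 2.42 to 17.4) and 31.2 CPM (HFD, 17.0 to 52.3) in T or innate lymphoid cells. Bcl6 had its highest level of any class in HFD dendritic cells, 69.6 CPM (49.9 to 94.4) from 41 UMIs in 72 cells, against 6.57 CPM (1.35 to 19.2) from 3 UMIs in the 62 LFD dendritic cells.

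**Figure D5:**
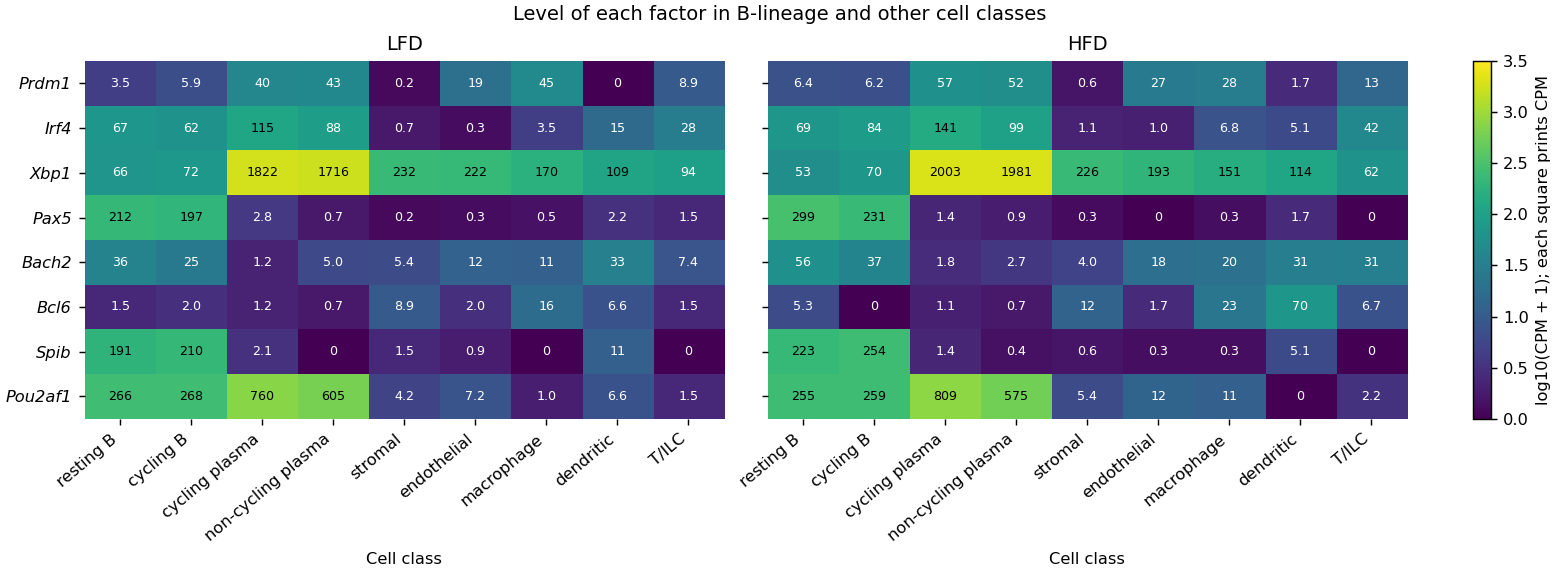
CPM of each factor (rows, printed in each square, colour on a log10 scale) in the 4 B-lineage classes and 5 other classes (columns), LFD left and HFD right. Pax5 and Spib are bright in the 2 B classes alone, and Prdm1 is found in macrophages (44.8 CPM LFD, 28.1 CPM HFD) and endothelial cells as well as in plasma cells.

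Over the same 18 points, the genes whose log2(CPM + 1) was most like each factor were sought among 13083 genes with at least 200 counts. They were Srpk3 (r = 0.981) and Zbtb32 (0.979) for Pax5, Cdh17 (0.986) and Siglecg (0.960) for Spib, and Trim12a (0.936) and Patz1 (0.930) for Bach2. For Xbp1 they were Slc35b1 (0.989), a nucleotide transporter of the endoplasmic reticulum, and Srprb (0.977), a subunit of the signal recognition particle receptor. Slamf6 (0.955) and 5830428M24Rik (0.934) were most like Irf4, Ly6d (0.982) and Gm30211 (0.976) most like Pou2af1, and Azin1 (0.897) and Mgat1 (0.851) most like Prdm1. Cyp27a1 and Scamp2 (both 0.867) were most like Bcl6. The points share their 2 libraries and differ in depth, and these are descriptions of likeness across cell classes.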

How the data were processed

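Single-cell RNA was captured from sorted live eYFP+ cells of gWAT, 1 library of pooled mice per diet. Per the labels, the deposited matrices hold raw UMI counts per gene and cell, which the authors made with Cell Ranger 4.0.0 (STAR aligner, build mm10). bcl2fastq 2.17.1.14 and Seurat 4.1.0 also stand in the submitters' processing notes, and the gene annotation release is not given in the sources used here. The 8 genes, the marker lists and the regulator lists were chosen with earlier results of these data known.

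Barcodes with 500 to 40000 UMIs, at least 100 genes and under 12.5% mitochondrial UMIs were kept. A B cell had at least 2 of 6 B markers (Ms4a1, Cd22, Cd79b, Fcmr, Blk and 1 that is not reported here) and at most 2 plasma markers. A plasma cell had at least 4 of 6 plasma markers (Jchain, Mzb1, Sdc1, Tnfrsf17, Derl3, Fkbp11), Tnfrsf17 or Derl3 among them. Both had at most 1 of 11 markers of other lineages (Pdgfra, Wt1, Upk3b, Cdh5, Kdr, Csf1r, Adgre1, Cd3e, Cd3g, Csf3r, Siglech). Cycling cells had at least 3 of 8 cycle markers (Mki67, Top2a, Birc5, Ube2c, Cdk1, Cenpf, Nusap1, Tpx2), resting or non-cycling cells at most 1, and cells with 2 were in neither. No doublet caller was applied in the main analysis, and removal by Scrublet score was an alternative.

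Counts were summed per class and library and given as CPM with exact Poisson intervals. Ratios had exact conditional binomial intervals, shares exact Clopper-Pearson intervals, all at 95% and covering counting error only. A ratio was judged with at least 20 counts over both sums, past 2-fold between classes or 1.5-fold between diets or cycle states, and a sum of 0 was replaced by 3 counts to give a bound. With 1 library per diet no test across samples was possible. All 8 genes were reported, and of each regulator list the 2 highest and 2 lowest plasma to B ratios. For likeness, the 2 genes with the highest Pearson r were named. Alternatives changed the scaling, the marker limits, the depth limit and the handling of doublets, and barcodes seen in both libraries were left out in an alternative chosen after seeing the data. Ratios and intervals were tested on simulated counts. Start sites and sequences were from RefSeq on GRCm38.p6, and gene positions from GENCODE M21 on GRCm38. Python 3.11.15, numpy 2.4.6, pandas 2.3.3, scipy 1.17.1, scanpy 1.11.5 and matplotlib 3.10.9 were used.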

Additional observations from a re-analysis of the deposited data

Results flagged for a closer look

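Xbp1 went in opposite directions with diet in resting B cells and in plasma cells. Its HFD to LFD ratio of CPM was 0.796 (0.640 to 0.987) in resting B cells, 1.10 (1.07 to 1.13) in cycling plasma cells and 1.15 (1.11 to 1.21) in non-cycling plasma cells, with counting intervals on either side of 1. In cycling B cells it was 0.980 (0.699 to 1.36), and over the other settings it ran from 0.848 to 1.66 there and from 0.711 to 0.977 in resting B cells. The ratio in cycling plasma cells was 1.38 times that in resting B cells, and the ratio in non-cycling plasma cells 1.45 times. In thinned resting B cells the share with an Xbp1 UMI was 12.0% (9.89 to 14.4%) in the LFD and 11.3% (8.92 to 14.1%) in the HFD library. Among B-lineage cells of any cycle state with 2 plasma markers, Xbp1 stood at 117 CPM (98.8 to 138) in the LFD and 57.9 CPM (44.9 to 73.5) in the HFD library. With 1 marker it stood at 59.3 and 65.5 CPM, and with none at 52.9 and 44.7 CPM. The difference between the cell classes was not tested, since each diet had 1 library. Immunoglobulin genes took a larger share of plasma cell UMIs in the HFD library (29.2% against 24.3% in cycling and 42.6% against 36.5% in non-cycling plasma cells). Without immunoglobulin genes the ratios were 1.18 in cycling and 1.28 in non-cycling plasma cells and 0.796 in resting B cells.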

How the results depend on the processing

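No paired analysis was possible because each diet had 1 library. Without replicates, differences between diets and between single libraries cannot be told apart. Pax5, Spib and Bach2 in plasma cells and Prdm1 in B cells rest on few UMIs. Of 192 counts and shares under other settings 155 stayed within 1.5 times the reported value or within its interval and 37 moved. Of 716 ratios of single factors 669 stayed within their interval, 45 moved and 2 reversed. A ratio was counted as reversed only if it had passed the fold limit in the main analysis. Ratios within the limit that turned direction, such as those of Prdm1, Xbp1 and Pou2af1 above, are counted with those that stayed or moved. The number of factors higher in plasma than in B cells went from 3 to 4, by Irf4, without immunoglobulin genes in both libraries and with median-ratio scaling in the HFD library, and was 3 under the other settings, as was the number lower under all of them, and leaving out barcodes present in both libraries moved none of the values.

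The numbers of factors past 1.5-fold moved as follows, and except where the setting itself leaves fewer cells the cause was not tested. For HFD over LFD in resting B cells the number was 1 with median-ratio scaling, with at least 3 B and at most 1 plasma marker, and with Scrublet doublets removed, and 0 with no other-lineage marker allowed. In cycling B cells it was 2 with at least 3 B and at most 1 plasma marker and 1 with cycling set at 5 or more cycle markers and non-cycling at 0. In cycling plasma cells it was 1 with median-ratio scaling, with the stricter cycle limits, with no other-lineage marker and with Scrublet doublets removed. It was 0 there with the mean of per-cell CPM, with at least 5 or at least 3 plasma markers, and without plasma cells that had 3 or more B markers. In non-cycling plasma cells it was 0 with no other-lineage marker, with Scrublet doublets removed and without plasma cells that had 3 or more B markers.

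For cycling over resting B cells the LFD number was 2 with median-ratio scaling and with the mean of per-cell CPM, and 0 with no other-lineage marker and with Scrublet doublets removed. The HFD number was 0 with the stricter cycle limits and with at least 2000 UMIs, and 2 with no other-lineage marker. For cycling over non-cycling plasma cells the LFD number was 1 with at least 3 plasma markers and with the stricter cycle limits. The HFD number was 1 with immunoglobulin genes left out, median-ratio scaling, the mean of per-cell CPM, at least 5 plasma markers, Scrublet doublets removed, or plasma cells with 3 or more B markers left out, and 0 with the stricter cycle limits.

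With the mean of per-cell CPM the log2 ratio of Spib for HFD over LFD in cycling plasma cells reversed to 0.026, and that of Pax5 for cycling over non-cycling plasma cells in the HFD library to -0.13. The HFD to LFD ratio of the share of cycling plasma cells was 4.25 with at least 5 plasma markers, and that of non-cycling plasma cells 3.93 with the stricter cycle limits, against 3.55 and 4.93. With at least 50 counts, 13.9% of all genes were past 1.5-fold between diets in cycling B cells and 10.6% in cycling plasma cells.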
